A study of Mus musculus with 19 samples.

Results

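Fibroblasts from the adult mouse heart had higher RNA levels of 3 transcription factors of heart and epicardial development than the mean of 6 other organs: Tcf21, Hand2 and Nkx2-5. Against single organs, Tcf21 passed in all 6 pairs, while Hand2 and Nkx2-5 did not pass in every pair. The Tcf21 calls against gonad and lung were lost under 18 and 10 of 34 alternative settings. Kidney had only arrays with high background, so pairs with it cannot be told apart from that background. The set described here holds 7 such factors, Nkx2-5, Hand1, Hand2, Isl1, Mef2c, Tcf21 and Meox1, chosen by gene name through the accession of each probe, with the GATA and T-box families left out. All 7 had a probe, and all 7 were among the 20187 genes tested. Hand2 had its highest level in liver fibroblasts. Isl1 stood well above background on all liver arrays and on 5 arrays with high background, both kidney arrays among them. In liver Isl1 did not pass on all 18 arrays, and it passed on the 13 without high background.

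In the embryo these factors act in a network that sets apart the heart's chambers and its outer layer. Nkx2-5 is a homeodomain factor of cardiac muscle precursors, Isl1 is a LIM homeodomain factor of the second heart field, and Mef2c is a MADS box factor that switches on contractile genes in muscle. Hand1 and Hand2 are basic helix-loop-helix factors of the ventricles, and Hand2 also works in the limb bud and in sympathetic neurons. Tcf21, a basic helix-loop-helix factor of the epicardium, is needed for the formation of cardiac fibroblasts, and Meox1 is a homeodomain factor of the somites. Basic helix-loop-helix factors bind the E-box, CANNTG, as dimers with widely expressed E proteins, and Id proteins block those dimers.

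The groups were fibroblasts of heart (3 samples), gonad (3), kidney (2), liver (3), lung (3), skin (2) and tail (3), all from adult mice 8 to 10 weeks old. All were treated alike: pieces of 2 to 3 mm were digested for 40 min with trypsin (0.05%) or collagenase (0.5 mg/mL), culture lasted 5 days at 10% serum, and the dye Cy3 went onto 0.1 µg of total RNA. The labels give neither strain nor sex nor which of the enzymes a sample had, and leave unsaid if the replicates of an organ were different animals. The p-values therefore cover only the spread among the samples at hand, which may be technical. The cultures are outgrowths defined by organ and not by a sort, so they can hold other cell types, and in such bulk RNA fewer cells of a type and less RNA per cell cannot be told apart. Scanner output was used for 18 arrays, and the third lung sample (lung 2) had only values without background subtraction, which are given at the end.

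The 5 high-background arrays are set apart below because the scanner software marked the net signal of their negative controls as out of range: heart 1, gonad 3, kidney 1, kidney 2 and tail 2. Their median raw spot signal was 213 to 1985 scanner units, against 63.0 to 130.5 on the 13 other arrays, and 84.8% to 96.3% of their probes stood well above background, against 50.1% to 76.9%. Kidney has no array outside these 5. A list of 15 fibroblast genes was read on every array, which cannot check the organ labels. All 15 were well above background on every heart array and 14 or 15 on each of the others. Their summed level was 613 times the array's 75th percentile on heart 1, 3535 on heart 2 and 3558 on heart 3. It was 211 to 423 on kidney arrays and 1942 to 3239 on the rest. Precision throughout is limited by how few arrays each organ has.

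Because 4 of the factors mark where the organs differed, the stretches upstream of their transcript starts are shown, 250 bases each, from RefSeq's promoter table on GRCm38.p6. The table holds 5 of the 7 genes, and the 4 shown are those with the clearest organ pattern below: Tcf21 (chr10:22820144-22820393, minus strand), Hand2 (chr8:57320733-57320982, plus strand), Nkx2-5 (chr17:26841566-26841815, minus strand) and Isl1 (chr13:116309689-116309938, minus strand). Each runs 5′ to 3′ on the gene's strand and ends at the base before the start, and capitals mark E-boxes, CANNTG.
Tcf21: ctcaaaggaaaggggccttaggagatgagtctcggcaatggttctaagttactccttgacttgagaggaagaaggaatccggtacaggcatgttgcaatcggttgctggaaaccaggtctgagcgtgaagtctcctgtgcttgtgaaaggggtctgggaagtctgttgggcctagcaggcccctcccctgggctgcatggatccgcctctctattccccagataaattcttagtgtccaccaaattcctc
Hand2: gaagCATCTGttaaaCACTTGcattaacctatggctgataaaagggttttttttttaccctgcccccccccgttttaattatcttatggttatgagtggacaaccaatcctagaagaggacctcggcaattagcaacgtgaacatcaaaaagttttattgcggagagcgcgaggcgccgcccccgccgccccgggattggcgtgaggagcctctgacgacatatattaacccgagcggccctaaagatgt
Nkx2-5: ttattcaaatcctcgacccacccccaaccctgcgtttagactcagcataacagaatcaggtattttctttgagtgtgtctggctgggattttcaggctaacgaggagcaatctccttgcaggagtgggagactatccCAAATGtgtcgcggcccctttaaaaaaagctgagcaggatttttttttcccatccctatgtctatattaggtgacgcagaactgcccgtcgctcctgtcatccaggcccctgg
Isl1: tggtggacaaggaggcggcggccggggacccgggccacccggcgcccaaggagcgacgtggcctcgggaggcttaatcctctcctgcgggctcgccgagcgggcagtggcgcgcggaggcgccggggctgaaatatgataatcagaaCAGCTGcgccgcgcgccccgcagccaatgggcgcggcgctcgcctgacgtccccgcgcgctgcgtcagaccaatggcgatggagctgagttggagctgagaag

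The upstream stretches of the 3 factors higher in heart had no common set of matches. An E-box was found 2 times in Hand2, 1 time in Nkx2-5, 1 time in Isl1 and 0 times in Tcf21, and 66.2% of all 32851 windows of this length hold one. The second E-box of Hand2 overlaps its match to AAGTG, the core bound by Nkx2-5, which 40.7% of all windows hold on either strand and which the other 3 stretches lack. AGATAA, a letter string bound by GATA factors, occurs on either strand in 9.99% of windows, and it is present in Tcf21, starting 31 bases before the start, and in Hand2, where it overlaps a TAATTA string, the homeodomain core held by 4.84% of windows. None of the 4 holds TATAAA (12.4% of windows) or a MEF2-type string of CTA and TAG with 4 letters between (3.20%). A match is only a string of letters, and the Isl1 stretch was the richest in G and C at 71.2%, against 49.2% in Hand2 and Nkx2-5 and 52.4% in Tcf21.

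Tcf21, the epicardial and fibroblast factor, was the member with the widest range over organs. A level below is the log2 processed signal less the 75th percentile of its array, so 0 is the level of that percentile. In heart the levels were 2.45, 4.90 and 4.57. They were 1.88, 1.52 and 0.78 in gonad, -0.47 and -0.58 in kidney, -0.57, 0.12 and 0.59 in liver, 0.64 and 0.79 in lung, -2.67 and -2.63 in skin and -3.55, -1.36 and -3.31 in tail. Every heart array lay above every other array, and the lowest heart array was heart 1, a high-background array. In scanner units the signal itself was alike on the 3 hearts, at 12272, 11852 and 9499.

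**Figure D1:**
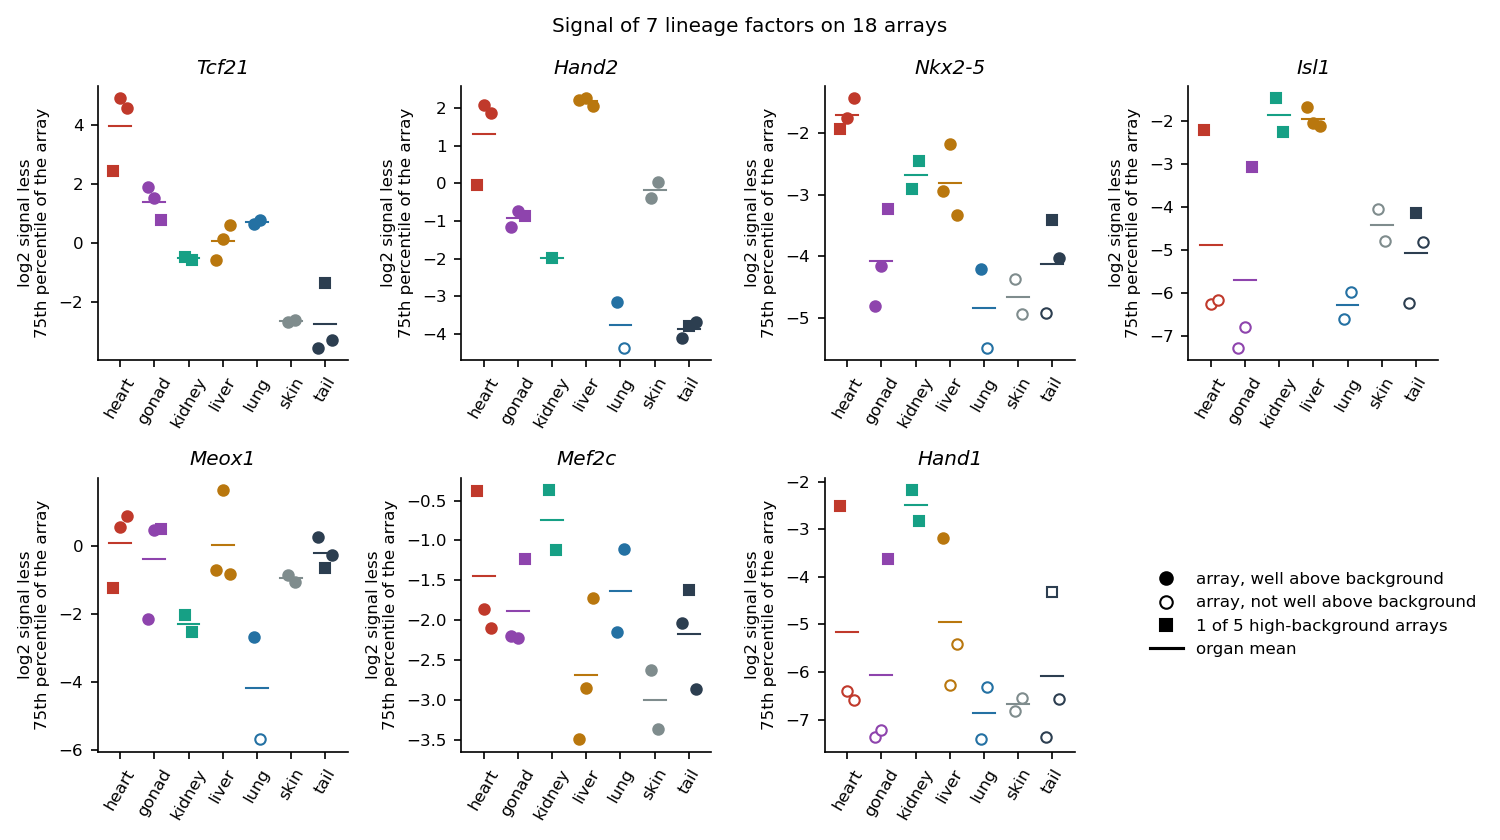
Levels of the 7 factors on 18 arrays, 1 panel per gene, with organs on the horizontal axis and log2 signal less the array's 75th percentile on the vertical axis. Filled symbols are arrays on which the probe was well above background, open symbols are not, squares are the 5 high-background arrays and lines are organ means. The 3 heart arrays lie above all others for Tcf21 and Nkx2-5, and the 3 liver arrays share the top with heart for Hand2.

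In limma, the heart mean was compared with the average of the 6 other organ means, and passing took a log2 difference of at least 1 together with an adjusted p under 0.05. Of the 7 factors, 3 passed as higher in heart and 0 as lower (0 also at an unadjusted p under 0.05), and among all genes tested 1.36% passed as higher and 2.33% as lower. The median difference was 1.40 over the factors and -0.11 over all genes. The factors were chosen with earlier results of these data known, so these shares and medians only describe the set. Tcf21 averaged 3.97 ± 1.33 in heart (SD, n = 3) against -0.63 for the mean of the other organs, a log2 difference of 4.60 ± 0.51 (SE, adjusted p = 1.4e-04), which is 24.2-fold. The difference passed under all 34 alternative settings, with values between 4.06 and 5.52. Hand2 averaged 1.31 ± 1.17 in heart against -1.42, a difference of 2.73 ± 0.40 (adjusted p = 0.0016) or 6.62-fold, and it passed under all 32 alternatives that could be computed. Nkx2-5 averaged -1.71 ± 0.25 in heart against -3.87, a difference of 2.16 ± 0.40 (adjusted p = 0.0063). Its probe was not well above background on either skin array, and with skin raised to the background limit heart was 4.29-fold higher. That is not a minimum, since lung 3 and tail 1 were also not well above background and kept their values.

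The call for Nkx2-5 was lost under 3 of 34 alternatives. The difference was 0.91 (adjusted p = 0.068) after normexp background correction with quantile normalization, 1.20 (adjusted p = 0.096) after quantile normalization alone, and 2.02 (adjusted p = 0.054) without heart 3. Without the 5 high-background arrays, and so against 5 organs, the same 3 factors passed as higher in heart, where 3.77% of all 18087 genes did: Tcf21 by 5.46 ± 0.25 (adjusted p = 7.6e-06), Hand2 by 3.30 ± 0.28 (adjusted p = 1.1e-04) and Nkx2-5 by 2.66 ± 0.40 (adjusted p = 0.0025). On these arrays Nkx2-5 was 6.04-fold higher in heart with skin raised to the background limit, which again is not a minimum because of lung 3 and tail 1. With normexp and quantile normalization the Nkx2-5 difference on these arrays was 1.22 (adjusted p = 3.1e-04).

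**Figure D2:**
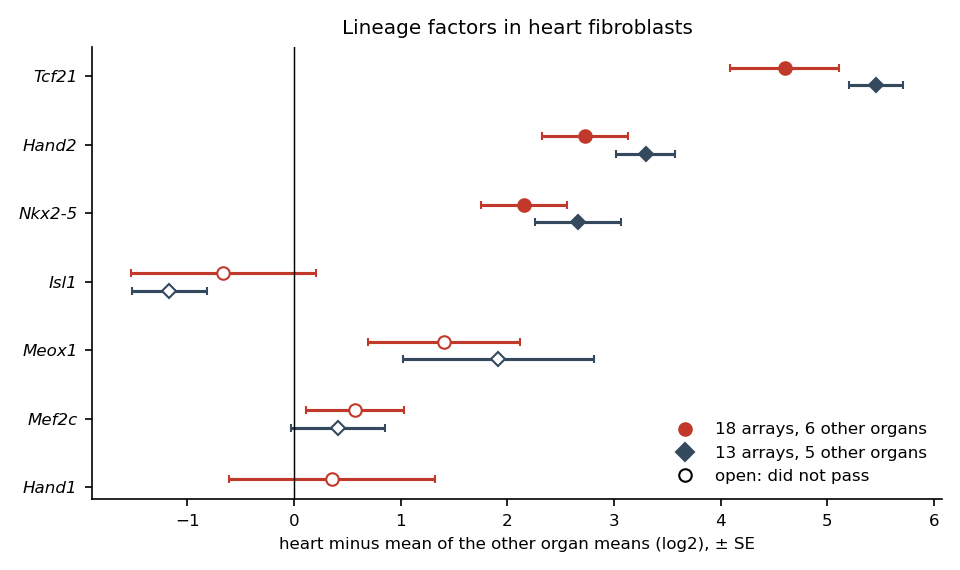
Difference between heart and the mean of the other organ means for each factor on the log2 scale, with bars of 1 SE. Circles use 18 arrays and diamonds the 13 arrays without high background, and filled symbols passed. Tcf21, Hand2 and Nkx2-5 passed in both, at 4.60, 2.73 and 2.16 on 18 arrays. Hand1 has no diamond because its probe was too dim on the 13 arrays to be tested.

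The arrays lay on 3 slides, with at most 1 array of an organ on each. Within slides, heart exceeded the mean of the other organs' arrays for Tcf21 by 5.71, 2.66 and 5.29, the second of these with heart 1. The heart array was the highest of its slide in all 3 cases. Hand2 exceeded that mean by 3.40, 1.32 and 2.95, and a liver array lay above the heart array on each slide. For Nkx2-5 the within-slide differences were 2.20, 2.34 and 1.65, and heart was again the highest on each slide. Tcf21 and Nkx2-5 were thus the 2 factors whose lowest heart array lay above the highest array of any other organ, a pattern that 0.327% of all genes showed.

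Against single organs, Tcf21 was higher in heart in all 6 pairs. The difference was 2.58 ± 0.66 against gonad (adjusted p = 0.043), 4.50 ± 0.74 against kidney (adjusted p = 0.0034), 3.93 ± 0.66 against liver (adjusted p = 0.0033), 3.26 ± 0.74 against lung (adjusted p = 0.032), 6.62 ± 0.74 against skin (adjusted p = 2.8e-04) and 6.71 ± 0.66 against tail (adjusted p = 4.0e-05). The gap to skin and tail was thus the widest, at 98.6-fold and 105-fold. Both kidney arrays are high-background ones, so in the kidney pair organ and background cannot be told apart. In that pair 14.5% of all genes were higher in heart. The calls against gonad and lung were the weak ones: they were lost under 18 and 10 of 34 alternatives, though the difference stayed between 2.11 and 3.34 against gonad and between 2.79 and 4.20 against lung. Both were lost without heart 2 or heart 3, the gonad call also without any gonad array and the lung call without either lung array, and both without some single arrays of other organs. Below heart the order of Tcf21 means was gonad, lung, liver, kidney, skin and tail, and of these neighbours kidney and skin differed beyond their spread (2.12 ± 0.81, adjusted p = 0.048), a pair in which 5.8% of all genes were higher in kidney.

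At the other end of its range Tcf21 was lower in skin than in the other organs by a log2 difference of -3.13 ± 0.61 (adjusted p = 0.022) and in tail by -3.23 ± 0.51 (adjusted p = 0.0014). The skin call was lost under 5 of 34 alternatives, including without skin 1 (adjusted p = 0.37) or without skin 2 (adjusted p = 0.46), and the tail call was kept under all 34. The probe was well above background on all 18 arrays, so these low levels were measured. Gonad, second to heart, lay 1.59 ± 0.51 above the mean of the others (adjusted p = 0.16) and did not pass. It passed on the 13 arrays without high background (1.82 ± 0.25, adjusted p = 0.0013).

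Hand2, a helix-loop-helix factor of the heart's right ventricle and outflow tract, had its highest levels in heart and liver. In heart the levels were -0.04, 2.08 and 1.88, and in liver 2.22, 2.25 and 2.06. The other organs had -1.16, -0.74 and -0.88 in gonad, -1.98 on kidney 1, -3.16 and -4.36 in lung, -0.39 and 0.04 in skin and -4.10, -3.80 and -3.68 in tail. Heart 2 and heart 3 thus lay beside the livers, and heart 1 lay at the level of skin. The Hand2 spot of kidney 2 was marked as an outlier by the scanner software and left out, so kidney rests on 1 array for this gene.

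Liver was higher in Hand2 than the mean of the other organs by 3.74 ± 0.40 (adjusted p = 8.9e-04), or 13.4-fold. It was 1 of 7 factors that passed as higher in liver, where 1.14% of all genes did, and it passed under all 32 alternatives with values from 2.55 to 3.84. Between heart and liver the difference was -0.87 ± 0.51 (adjusted p = 0.36), with a 95% interval from -1.98 to 0.23. On the 13 arrays it was -0.20 ± 0.33 (adjusted p = 0.78), so no difference was detected, and the interval of the full fit still allows heart to lie well below liver.

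Hand2 was higher in heart than in gonad by 2.23 ± 0.51 (adjusted p = 0.025), than in kidney by 3.29 ± 0.72 (adjusted p = 0.017), than in lung by 5.07 ± 0.57 (adjusted p = 4.3e-04) and than in tail by 5.17 ± 0.51 (adjusted p = 6.0e-05). The gonad and kidney calls were lost without heart 2 or without heart 3, and the gonad call also without gonad 1 or gonad 2. The kidney value is from a high-background array, so in this pair too organ and background cannot be told apart. Against skin the difference of 1.49 ± 0.57 did not pass (adjusted p = 0.33), while on the 13 arrays it did (2.16 ± 0.36, adjusted p = 0.0035). Tail was low on all 3 arrays, at a difference of -3.30 ± 0.40 from the mean of the others (adjusted p = 2.6e-04), called under all 32 alternatives. Lung was lower by -3.18 ± 0.48 (adjusted p = 0.012), but its probe was well above background on lung 1 only, and the call was lost after quantile normalization (-1.13, adjusted p = 0.20), with normexp in addition (-1.06, adjusted p = 0.16), without lung 1 (-3.78, adjusted p = 0.11) and without lung 3 (-2.58, adjusted p = 0.48). Hand2 made up the 1 factor of 7 lower in lung, against 0.124% of all genes, while skin had 1 of 7 lower (0.639% of all genes) and tail 2 of 7 (2.16%).

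**Figure D3:**
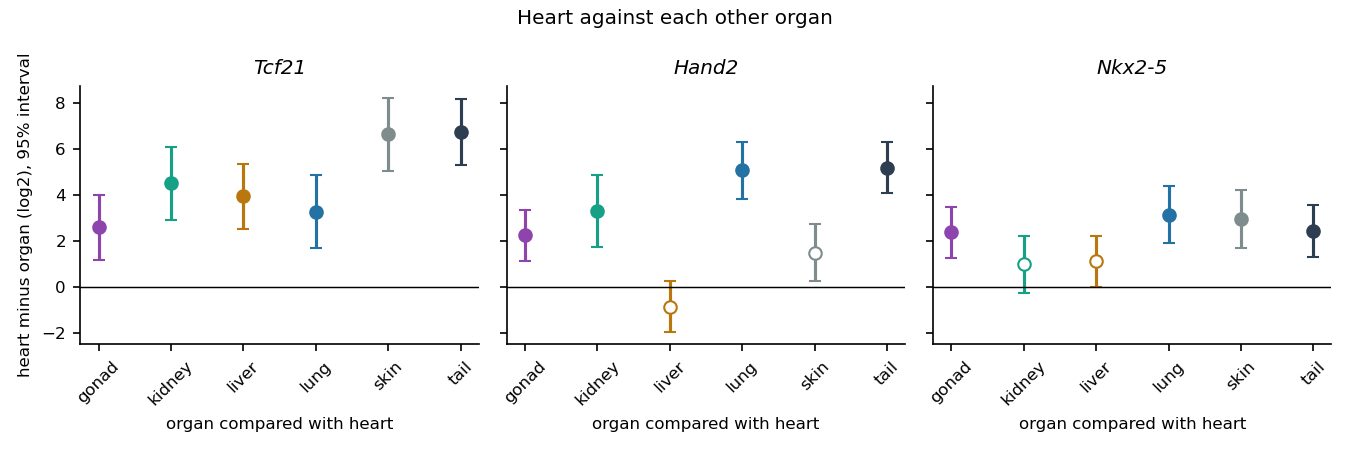
Heart minus each other organ on the log2 scale for Tcf21, Hand2 and Nkx2-5, with 95% intervals from the limma fit of 18 arrays, filled where the pair passed. Tcf21 passed in 6 of 6 pairs, and the Hand2 value against liver, -0.87, is the only one below 0.

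Nkx2-5, the homeodomain factor of cardiac precursors, was a low signal throughout. The levels in heart were -1.93, -1.76 and -1.44. They were -4.81, -4.17 and -3.23 in gonad, -2.91 and -2.45 in kidney, -2.94, -2.18 and -3.32 in liver, -4.21 and -5.48 in lung, -4.38 and -4.94 in skin and -4.93, -3.42 and -4.03 in tail. Heart was the highest group with no overlap, and the nearest arrays were liver 2 and kidney 2. The probe was well above background on 14 of 18 arrays, among them all heart, liver, kidney and gonad arrays.

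Heart exceeded gonad in Nkx2-5 by 2.36 ± 0.52 (adjusted p = 0.017), lung by 3.14 ± 0.58 (adjusted p = 0.0085) and tail by 2.42 ± 0.52 (adjusted p = 0.014). It also passed against skin (adjusted p = 0.013), at 6.14-fold with skin raised to the background limit. That fold holds for this scaling only, and the difference from skin was smaller with the other normalizations given below. The sizes against lung and tail include lung 3 and tail 1, where the probe was not well above background. Heart exceeded kidney by 0.97 ± 0.58 (adjusted p = 0.16, 95% interval -0.27 to 2.22) and liver by 1.11 ± 0.52 (adjusted p = 0.34, interval -0.01 to 2.22), and neither pair passed. After quantile normalization none of the 4 passing pairs passed, at differences of 0.94, 0.98, 1.62 and 1.85 against gonad, lung, tail and skin, nor did they with normexp in addition (0.79, 0.87, 1.15 and 1.31). The pair calls were sensitive to the spread estimate: with a variance trend and robust eBayes none of the 4 passed, at adjusted p of 0.093 for gonad, 0.051 for lung, 0.076 for tail and 0.072 for skin. Leaving out gonad 1, gonad 2, heart 2 or heart 3 also ended the gonad call, lung 3 the lung call (2.50, adjusted p = 0.21), skin 1 or skin 2 the skin call, and heart 3, tail 1 or tail 3 the tail call. Over the pairs, the share of all genes higher in heart was 1.31% against gonad, 14.5% against kidney, 1.07% against liver, 0.738% against lung, 1% against skin and 1.47% against tail.

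Isl1, the LIM homeodomain factor of second heart field cells, was not raised in heart. Its probe is printed 10 times on each array, and it stood well above background on 8 arrays: the 3 livers and the 5 high-background arrays. The mean signals in scanner units were 164, 126 and 104 on the livers, where all 10 spots of each array were well above background and spot signals ran from 95.5 to 179. On heart 2 and heart 3 the signals were 5.17 and 5.57, and no spot was well above background there. Heart 1 read 483, gonad 3 read 64.2, tail 2 read 34.4 and the kidneys read 1480 and 432. Among the 13 arrays without high background the next after the livers was skin 1, at 28.7, with 5 of its 10 spots above background.

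On the scale used for the tests, Isl1 had levels of -1.68, -2.05 and -2.13 in liver and -2.22, -6.26 and -6.16 in heart. The remaining arrays ranged from -7.27 on gonad 1 to -1.49 on kidney 1. Liver lay 2.75 ± 0.87 above the mean of the others (adjusted p = 0.15) on 18 arrays and did not pass. On the 13 arrays the difference was 3.94 ± 0.30 (adjusted p = 6.6e-04). With this scaling liver was at least 6.08-fold higher, since the probe was not well above background in any array of the other 5 organs. That minimum holds for this scaling only. On the same arrays the difference was smaller with normexp and quantile normalization. Hand2 and Isl1 were thus 2 factors higher in liver on the 13 arrays, where 2.63% of all genes were. The call was also gained with normexp and quantile normalization (1.75, adjusted p = 6.6e-05), quantile normalization alone (2.25, adjusted p = 0.0018), the raw value table of 19 samples (1.20, adjusted p = 0.046), a term for high background (3.79, adjusted p = 5.4e-04), without gonad 3 (2.97, adjusted p = 0.042) and without heart 1 (2.98, adjusted p = 0.025). Within slides the liver array exceeded the mean of the other organs by 3.76, 2.66 and 1.84, and only on the third slide did another array, kidney 1, lie above it.

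**Figure D4:**
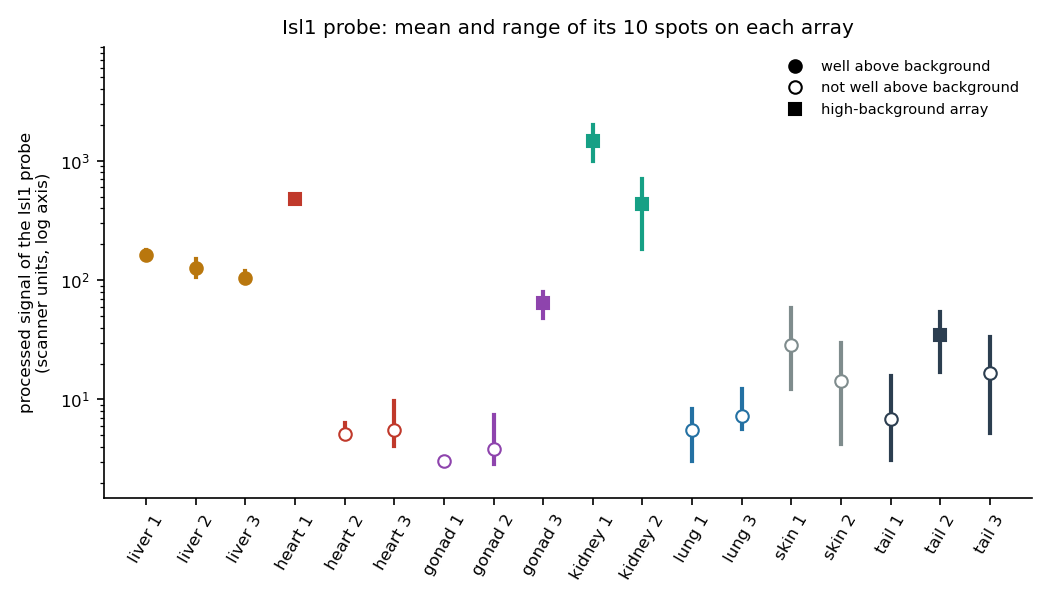
Signal of the Isl1 probe in scanner units on a log axis, as the mean (symbol) and the range (bar) of its 10 spots on each of 18 arrays. Filled symbols were well above background and squares are high-background arrays. Outside the high-background arrays, only the livers, at 104 to 164, are filled.

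Meox1, the somite homeodomain factor, was measured well above background on 17 of 18 arrays and varied widely within organs. Its levels were -1.24, 0.56 and 0.88 in heart, -2.14, 0.45 and 0.49 in gonad, -2.04 and -2.53 in kidney, -0.72, 1.63 and -0.84 in liver, -2.68 and -5.67 in lung, -0.84 and -1.06 in skin and 0.24, -0.64 and -0.28 in tail. Heart overlapped gonad, liver, skin and tail. Heart lay 1.40 ± 0.71 above the mean of the others (adjusted p = 0.62) and did not pass, nor did it on the 13 arrays (1.91 ± 0.90, adjusted p = 0.20). Of its 6 pairs, the one with lung passed, at 4.24 ± 1.03 (adjusted p = 0.045), and that call was lost under 19 of 34 alternatives, without lung 3 at a difference of 2.75 (adjusted p = 0.71). No pair of neighbours in the order of its means, which was heart, liver, tail, gonad, skin, kidney and lung, differed beyond their spread.

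Mef2c, the MADS box factor of muscle, was well above background on all 18 arrays and had no organ pattern that passed the F test (adjusted p = 0.11). Its levels in heart were -0.38, -1.86 and -2.09, the first on heart 1, and the other arrays ran from -3.49 on liver 1 to -0.37 on kidney 1. The 2 highest arrays of the 18 were high-background ones. Heart differed from the mean of the others by 0.57 ± 0.46 (adjusted p = 1.00), and by 0.42 ± 0.44 on the 13 arrays (adjusted p = 0.58).

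Hand1, the helix-loop-helix factor of the left ventricle and of extraembryonic tissue, was not well above background on most arrays. It read 4.73 and 4.14 scanner units on heart 2 and heart 3, both not above background, and 393 on heart 1. It stood above background on 5 arrays, heart 1, gonad 3, kidney 1, kidney 2 and liver 1, the last at 58.1 units. Its level in liver 1 was -3.18, against -6.27 and -5.41 on the other livers, so the livers differed among themselves. Heart differed from the mean of the others by 0.36 ± 0.97 (adjusted p = 1.00), and on heart 2 and heart 3 only the background limit is known.

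In kidney, 3 of the 7 factors passed as higher, where 35.1% of all genes did: Hand1 (fitted difference 3.47 ± 1.14, adjusted p = 0.017), Isl1 (fitted difference 2.85 ± 1.03, adjusted p = 0.024) and Mef2c by 1.39 ± 0.54 (adjusted p = 0.031). With organs that were dim on every array raised to the background limit, Hand1 was 5.56-fold and Isl1 5.80-fold higher. Neither value is a minimum, since dim arrays of the remaining organs kept their values below that limit. All 3 calls were lost with quantile normalization, with normexp and quantile normalization together, with a term for high background, and without kidney 1 or kidney 2. Under the term for high background the differences were 0.62, 0.26 and 0.44. Both kidney arrays are high-background ones, so kidney and high background cannot be told apart here.

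Over all 7 organs the F test passed for 5 of 7 factors, where 32.4% of all genes passed: Hand2 (adjusted p = 5.0e-05), Tcf21 (adjusted p = 2.0e-04), Nkx2-5 (adjusted p = 0.0072), Meox1 (adjusted p = 0.043) and Isl1 (adjusted p = 0.049). Hand1 did not pass (adjusted p = 0.17). With the slide as a block 3 factors passed. Over the 6 other organs, each against the mean of the rest, 8 of 42 tests of the factors passed, against 14.8% over all genes. Over all 21 organ pairs 40 of 147 passed, against 17.2%.

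Among 20 relatives of the factors tested, 1 passed as higher in heart and 0 as lower, with a median of -0.27. The one was Msc, musculin, a helix-loop-helix factor close to Tcf21 in sequence (-1.18 in heart against -5.28 for the mean of the others, difference 4.10 ± 0.64, adjusted p = 0.0018). With organs that were dim on every array raised to the background limit, Msc was 11.4-fold higher in heart. That value does not allow for dim arrays in the remaining organs. Msc passed under all 34 alternatives, with values from 1.73 to 5.13. Its probe was above background on 9 arrays, among them all 3 hearts. The related factors Twist1, Meox2, Mef2a and Mef2d differed by -0.36, -0.22, 0.47 and -0.22 and did not pass.

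Of the partners with which helix-loop-helix factors pair, the E proteins Tcf3, Tcf4 and Tcf12 and the inhibitors Id1 to Id4, 0 of 7 passed in heart in limma, 0 also at an unadjusted p under 0.05, with a median of 0.14 and values from -0.76 (Id4) to 0.86 (Id3). All 7 were well above background on every array. Of 20 cofactors and repressors, 0 passed as higher (0 at an unadjusted p under 0.05) and 2 as lower, with a median of -0.28. The lower ones were Ldb2, a LIM domain binding protein that partners LIM homeodomain factors (-2.60 ± 0.47, adjusted p = 0.0049), and Hopx, a small homeodomain protein that restrains serum response factor in the heart (-2.33 ± 0.41, adjusted p = 0.0042). The Ldb2 call was lost without heart 2 (-2.32, adjusted p = 0.052). Both were above background on 1 of the 3 heart arrays. Over these 3 lists 3 of 47 genes passed, where 3.69% of all genes did. Without the high-background arrays 7 passed, where 9.65% of all genes did, and without heart 1 the count was 10, where 10.6% did, so the share over all genes moved as well.

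Markers of other cell types were read beside the heart results, and their part in those results was not tested. For these lists and those that follow, 1.36% of all genes passed as higher in heart and 2.33% as lower. Of 18 cardiomyocyte genes, 1 was higher in heart, the atrial and embryonic myosin light chain Myl4 (1.80 ± 0.40, adjusted p = 0.019), and 1 was lower, cardiac actin Actc1 (fitted difference -4.17 ± 0.46, adjusted p = 1.2e-04), with a median of 0.06. With heart raised to the background limit, Actc1 was 4.25-fold lower. That is not a minimum, since dim arrays of other organs kept their values. The Myl4 call was lost without heart 2 (1.37) or without heart 3 (1.51). The summed level of the 18 genes was 17.4 to 25.3 in heart, against 5.72 to 42.4 in the other organs. Of the 18, 17 were above background on heart 1, 10 on heart 2 and 8 on heart 3. Of all probes, 95.4%, 53.4% and 52.2% were well above background on these arrays. The cardiac myosin Myh6 averaged -2.54 in heart against -2.27 for the mean of the other organs, and Actc1 was above background on no heart array.

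The epicardial and mesothelial list had 1 of 13 genes higher and 7 lower in heart, against 1.36% and 2.33% of all genes, with a median of -2.61. The higher one was Aldh1a2, the retinoic acid-making enzyme of the epicardium (2.57, adjusted p = 0.0048), and Wt1, the Wilms tumour factor of the epicardium, was among the lower ones (-2.55, adjusted p = 0.017). Both were named after their values were seen. The 4 largest changes by the naming rule were the keratins Krt18 (-4.67 ± 0.63, adjusted p = 6.6e-04) and Krt8 (-4.21 ± 0.80, adjusted p = 0.0069), the membrane glycoprotein Gpm6a (adjusted p = 2.6e-04, with no size given because its probe was not well above background on any heart array) and the uroplakin Upk1b (-3.25 ± 0.70, adjusted p = 0.017). Krt8 and Upk1b were well above background on 1 of the 3 heart arrays. The list's summed level was 19.3 to 87.8 in heart, against 9.03 to 226 in the other organs. The heart sum is mostly Aldh1a2, whose mean level there was 5.48, while the next highest of the list was Sema3d at 0.54.

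Among fibroblast genes 2 of 15 were higher in heart, the proteoglycan Lum (4.28 ± 0.68, adjusted p = 0.0019) and dermatopontin, Dpt (3.70 ± 0.93, adjusted p = 0.040, lost under 16 of 34 alternatives). Of 12 smooth muscle and pericyte genes 0 were higher and 5 lower, against 1.36% and 2.33% of all genes. The largest were Actg2 (-5.30 ± 0.43), Cnn1 (-4.78 ± 0.41), Myh11 (-4.09 ± 0.44) and Cspg4 (-4.03 ± 0.34), each with an adjusted p of at most 1.1e-04. Of 12 endothelial genes 1 was higher (Tek, 1.87 ± 0.45, adjusted p = 0.032) and 2 lower (Emcn, -3.28 ± 0.67, above background on 1 heart array, and Cdh5, -2.54 ± 0.56, on 2). Of 12 macrophage genes Cd14 was lower (-1.68 ± 0.39, adjusted p = 0.026). Of 11 skeletal muscle genes Acta1 was lower (-1.82 ± 0.43, adjusted p = 0.028). Of 10 autonomic neuron genes Tubb3 was higher (2.25 ± 0.47, adjusted p = 0.013) and Stmn2 lower (-2.38 ± 0.59, adjusted p = 0.039, above background on 1 heart array). Of 8 epithelial genes 0 passed in limma, and 1 was lower at an unadjusted p under 0.05. The calls of Krt8, Upk1b, Emcn, Cdh5, Tek, Cd14, Tubb3, Stmn2 and Dpt were lost without heart 2 and without heart 3, that of Acta1 without heart 1 or heart 2, and those of Tek, Cd14, Acta1, Stmn2 and Dpt also without some single arrays of other organs.

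**Figure D5:**
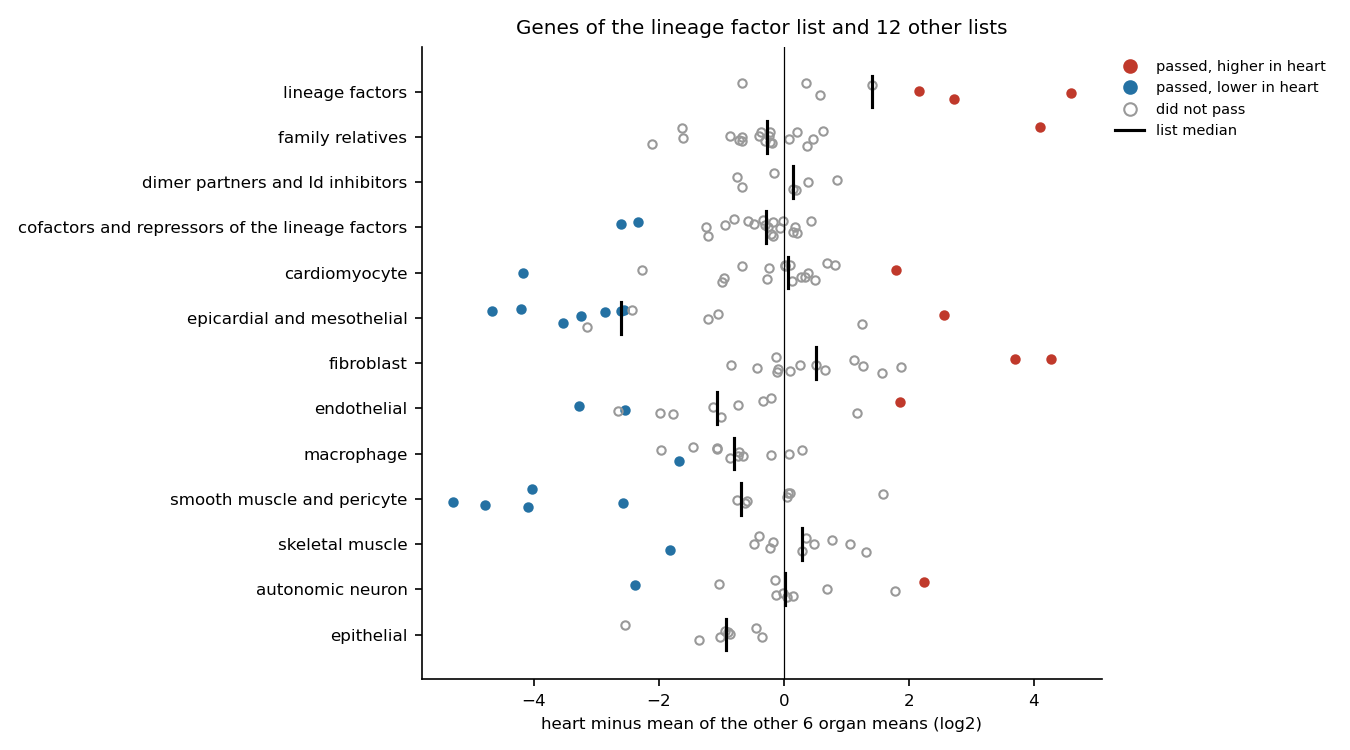
Heart minus the mean of the other 6 organ means on the log2 scale for each tested gene of 13 lists, 1 row per list. Red points passed as higher in heart, blue points as lower, open points did not pass, and black bars are list medians. The lineage factors have 3 red points and a median of 1.40, and the epicardial and mesothelial genes 7 blue points and a median of -2.61.

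Beside the liver levels of Hand2 and Isl1, markers of other cells were read in the liver cultures. Endothelial genes summed to 101 to 325 in liver, against 16.2 to 203 elsewhere, and macrophage genes to 52.1 to 80.3, against 10.3 to 70.0. Both ranges overlapped that of gonad only, at 63.2 to 203 for endothelial and 38.9 to 70.0 for macrophage genes. Arrays of the remaining organs lay below every liver array for both lists. Mesothelial genes summed to 214, 60.8 and 51.7 on the 3 livers, against 9.03 to 226 elsewhere, and on liver 2 and liver 3 the sum lay below that of both kidney and both lung arrays. Of 12 endothelial genes 5 passed as higher in liver, of 12 macrophage genes 4, and of 13 mesothelial genes 7, where 1.14% of all genes did. The part of these cells in the Hand2 and Isl1 levels was not tested.

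For each factor, the genes with the most similar profile were taken by Pearson's r over arrays, which share organ, slide and background. For Tcf21 they were Strip2 (r = 0.94), Slc35f1 (0.92), Pdlim3, a PDZ and LIM domain protein of the muscle Z-disc (0.92), Rtn1 (0.91) and Serpina9 (0.91), over 18 arrays. All 5 passed as higher in heart, by 2.31 to 4.66, where 1.36% of all genes did. They were picked for likeness to Tcf21 on these same arrays, so this is no separate result. For Nkx2-5 they were B3gnt8 (0.92), Gbp9 (0.86), the platelet chemokine Pf4 (0.84), the reproductive homeobox gene Rhox5 (0.83) and Endou (0.82). For Hand2, over 17 arrays, they were the endothelial receptor Notch4 (0.86), Garem2 (0.85), Grap (0.85), Ecscr (0.83) and Lrrn2 (0.83).

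The profiles closest to Isl1 were Cd5l, a protein secreted by macrophages (0.94), Isl2, its nearest relative (0.94), Fcgr2b, the inhibitory IgG receptor (0.94), the bile acid receptor Gpbar1 (0.91) and the macrophage gene Aif1 (0.91). On the 13 arrays these correlations were 0.96, 0.93, 0.92, 0.87 and 0.88. For Hand1 the closest were Lipn, Pou1f1, Olfr533, Pramel4 and Pram1, at 0.92 to 0.95, of which Pou1f1, Olfr533 and Pramel4 were above background on at most 5 arrays. For Mef2c they were Zfp383, Mblac2, Prex2, Cnfn and Gdpd3, at 0.83 to 0.86, and for Meox1 C5ar2, Lyn, Rhd, Sncaip and Ramp2, at 0.74 to 0.77. Among the factors themselves Hand1 and Isl1 had an r of 0.81 over 18 arrays and 0.76 on the 13 arrays, where neither probe was well above background outside liver. Nkx2-5 and Hand2 had an r of 0.66, and 0.78 on the 13 arrays, so the order of these pairs differed between the sets of arrays.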

How the data were processed

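Total RNA of 19 samples was labelled with Cy3 and hybridised to 1-colour Agilent mouse arrays, and 18 arrays had scanner files. Per the submitters' processing notes, spots were read with Agilent Feature Extraction 11.0.1.1. The authors deposited a processed signal per spot, an intensity in scanner units that is background-subtracted and not normalized between arrays, and flags of 0 or 1. The deposited value table was checked to equal the raw median intensity on 18 of 18 arrays. Probes were named by RefSeq accession (GRCm38.p6), outlier spots left out, spots of a probe averaged, and log2 intensity taken less each array's 75th percentile. The brightest probe of a gene was kept if well above background on at least 2 arrays, which left 20187 genes. Hand2 lacks the kidney 2 value, and keeping such incomplete probes was chosen after seeing the data. One limma model (version 3.58.1, R 4.3.3) held all 7 organ means and left 11 residual degrees of freedom, with Benjamini-Hochberg adjustment over all genes within each comparison. The precision is set by the number of arrays. Named list genes are the 4 largest changes that passed in heart, and similar profiles the 5 highest correlations without predicted names. The factors and gene lists were chosen with earlier results of these data known. Alternatives changed the normalization, filter, probe choice, spread estimate, blocks, arrays and threshold. Each factor has 1 probe.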

Additional observations from a re-analysis of the deposited data

How the results depend on the processing

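The count of factors that passed in heart was 3, and 2 with quantile normalization, with normexp and quantile normalization together and with complete probes only. Leaving out each array gave 2 to 3: 2 without heart 3, where Nkx2-5 did not pass, and 2 without kidney 1, where Hand2 has no kidney value and is not tested. Over the 6 other organs 8 calls among 42 became 3 at an adjusted p under 0.01 and 5 with complete probes only, which drops Hand2 (chosen after seeing the data), and ran from 2 (without kidney 1) to 12 (without heart 1), with 5 without kidney 2. Over the 21 organ pairs 40 calls of 147 became 14 at 0.01 and ran from 13 (without kidney 1) to 60 (without heart 1). The F test count of 5 became 3 at 0.01 and 3 with the slide as a block. It ran from 2 (without kidney 1) to 5, and was 3 without any one of gonad 2, kidney 2, lung 3, any liver, skin or tail array. Samples share only a replicate number: deviations of same-numbered pairs correlated from -0.85 to 0.78, and with the replicate block the F test count was 3, the heart count 3. Among the 47 related genes the count of 3 in heart became 5 with quantile normalization, 5 with normexp and quantile normalization together, 5 with median scaling, 6 with the value table, 6 with a high-background term, 7 without the high-background arrays, 6 with normexp and quantile normalization in addition and 8 with the slide block in addition (chosen after seeing the data), and ran from 2 (without heart 2) to 10 (without heart 1). Single values of the factors kept direction and call in 2720 of 2993 cases, lost the call in 112, gained it in 59 and changed sign without a call in 102. Signals near background limit Hand1, Isl1 and Nkx2-5. Where 1 array of an organ remains, it is assumed to vary like the others.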

Other observations

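The second lung sample, for which only the raw value table was used, differed from the other lungs in Tcf21. Its raw signal was 96.0, against 794 and 722 on lung 1 and lung 3, with array medians of 80.5, 87.0 and 77.0. Hand2 read 130 on lung 2, against 104.5 and 75 on lung 1 and lung 3. Over all genes lung 2 correlated most with lung 1 (r = 0.93), below the 0.99 between lung 1 and lung 3. With lung 2 included, from the value table, Tcf21 again passed as higher in heart than in the mean of the other organs. The cause was not tested.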
